A study of Homo sapiens with 24 samples.

Results

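Lysosome and autophagy genes were followed in a pair of human cancer cell lines given vemurafenib. The set holds 43 symbols listed by function, namely lysosomal membrane proteins, proteases, hydrolases, lipid-handling proteins, subunits of the proton pump, autophagy proteins and the transcription factors TFEB and TFE3. A symbol was kept when at least 1 of its probes was detected (detection p-value under 0.05) on 3 or more of 24 arrays, and its brightest such probe was read. By that rule 42 of the 43 were measured, out of 13699 genes in all. The protease gene CTSS was left out because its probe was detected on 0 of 24 arrays.

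RNA came from SKMEL28, a melanoma line, and SW1736, a thyroid cancer line, both labelled as carrying BRAF V600E, and was hybridised to Illumina bead arrays. Cells in RPMI medium with fetal bovine serum, glutamine and antibiotics received no drug (0 h) or 2 µM vemurafenib, which blocks the mutant BRAF kinase, during 1, 6 or 48 h. Each of the 8 groups had 3 arrays. Untreated cells were sampled at 0 h only, so an effect of the drug and one of time in culture cannot be told apart, and each line is a single model of its tumour type. Nothing in the labels says that replicates were separate cultures, and the p-values reflect the spread among these samples alone, which could be technical. In bulk RNA, a changed level in every cell and a changed share of cells cannot be told apart either.

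Lysosomes are acidic organelles in which proteases and other hydrolases break down material delivered by endocytosis or by autophagy, the process that encloses cytoplasm in a membrane and carries it to the lysosome. A proton pump, the V-ATPase, keeps the interior acidic. Many of the genes share a promoter sequence called the CLEAR element, which is bound by TFEB, TFE3 and the related factor MITF. TFEB and TFE3 move into the nucleus when the kinase complex mTORC1 at the lysosome surface is inactive. In melanocytes MITF also drives pigment cell genes, and the melanosome is an organelle related to the lysosome.

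The arrays each detected 17369 to 19843 of 47231 probes (36.8% to 42.0%). Replicates were more variable in SW1736 than in SKMEL28, with a median SD over the 42 genes of 0.257 against 0.118 on the log2 scale. Untreated SKMEL28 arrays detected all 7 measured melanocyte markers, among them SOX10, TYR and MLANA. Of these, untreated SW1736 arrays detected MITF on 3 of 3 and PMEL on 2 of 3 arrays and the other 5 on none. Untreated SW1736 arrays detected the thyroid factors PAX8 and FOXE1 on 3 of 3 arrays, but detected NKX2-1, TG, TSHR, SLC5A5 and DIO1 on none, so defining markers of the thyroid follicular cell were absent from the line.

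The promoter sequences of the genes were searched for the core of the CLEAR element, TCACGTGA, and for the shorter E-box CACGTG that lies within it. Both motifs read the same on either strand. RefSeq promoter windows (GRCh38.p14, 250 bases before to 50 after an annotated start) were at hand for 30 of the 42 genes and 12 had none. TCACGTGA was present in a window of 6 of these 30 genes (20.0%), against 1.18% of 27305 genes with a window and 2.14% of the 10873 measured ones. CACGTG was present in 9 of 30 (30.0%), against 8.77% and 12.4%. The stretches around the match are shown for all 9 genes, since their response at 48 h is described next. Capitals mark 1 match in each gene, and the strand is that of the gene. Further CACGTG matches stand in lower case in the stretches of MCOLN1, LAMP1 and CTSA, and in all the windows hold 6 such matches for LAMP1, 2 each for MCOLN1, GAA, CTSA, CLN3 and CTSF, and 1 each for the rest. TCACGTGA occurs 2 times each in GAA, MCOLN1 and LAMP1.
GAA, chr17:80101478-80101537 (+), marked motif starting 77 bases before the start site: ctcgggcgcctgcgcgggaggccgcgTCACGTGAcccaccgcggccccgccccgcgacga
MCOLN1, chr19:7522556-7522615 (+), 42 bases before: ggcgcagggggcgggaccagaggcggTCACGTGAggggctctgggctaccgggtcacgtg
CTSA, chr20:45891283-45891342 (+), 26 bases before: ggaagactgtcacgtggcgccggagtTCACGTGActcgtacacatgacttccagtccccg
CLN3, chr16:28492043-28492102 (-), 2 bases before its first start site and 6 after its other one: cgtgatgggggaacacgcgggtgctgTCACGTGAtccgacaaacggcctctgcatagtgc
ATP6V0D1, chr16:67481184-67481243 (-), 60 bases before: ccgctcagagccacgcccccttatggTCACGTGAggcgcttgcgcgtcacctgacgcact
LAMP1, chr13:113297184-113297243 (+), 29 bases before: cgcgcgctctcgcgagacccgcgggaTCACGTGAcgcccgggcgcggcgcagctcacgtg
CTSD, chr11:1763942-1764001 (-), 47 bases before: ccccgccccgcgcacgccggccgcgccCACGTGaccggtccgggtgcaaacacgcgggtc
CTSF, chr11:66568697-66568756 (-), 123 bases before: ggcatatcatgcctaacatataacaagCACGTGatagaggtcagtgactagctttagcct
NEU1, chr6:31862915-31862974 (-), 126 bases before: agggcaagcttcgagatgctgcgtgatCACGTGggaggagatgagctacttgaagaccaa
These are matches of letters and were not tested as sites of binding.

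After 48 h most calls among the 42 genes were rises, in each line. In SKMEL28, 24 rose (20.0% of all genes were called higher) and 4 fell (18.8% of all genes were called lower), with a median log2 difference of 0.58 against 0.03 over all genes. In SW1736, 23 rose (18.2% of all genes) and 0 fell (16.1% of all genes), with a median of 0.49 against 0.02. GLA, IDS and ATP6V1B2 were lower there at an unadjusted p under 0.05. Calls are those of limma at an adjusted p under 0.05 over all 13699 genes, and differences are given as log2 with their SE. The SE of a gene rests on a spread shared by both lines, although SW1736 replicates were more variable. The genes that rose in both lines numbered 17, which is 70.8% of the SKMEL28 list and 73.9% of the SW1736 list, and the lines share no arrays. The share of all genes that rose in both lines was not counted, so this overlap is not read as particular to the set. The 17 genes were CLN3, CTSA, CTSD, CTSF, CTSO, GAA, GABARAPL1, GLB1, MCOLN1, NAGLU, NEU1, NPC2, PSAP, SGSH, TPP1, ULK1 and WIPI1. Scaling the arrays by their median in place of quantiles turned these counts into 21 rises and 6 falls for SKMEL28, and 17 rises and 3 falls for SW1736. The shares of all genes given above belong to the main fit and do not apply to the counts under that scaling.

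**Figure D1:**
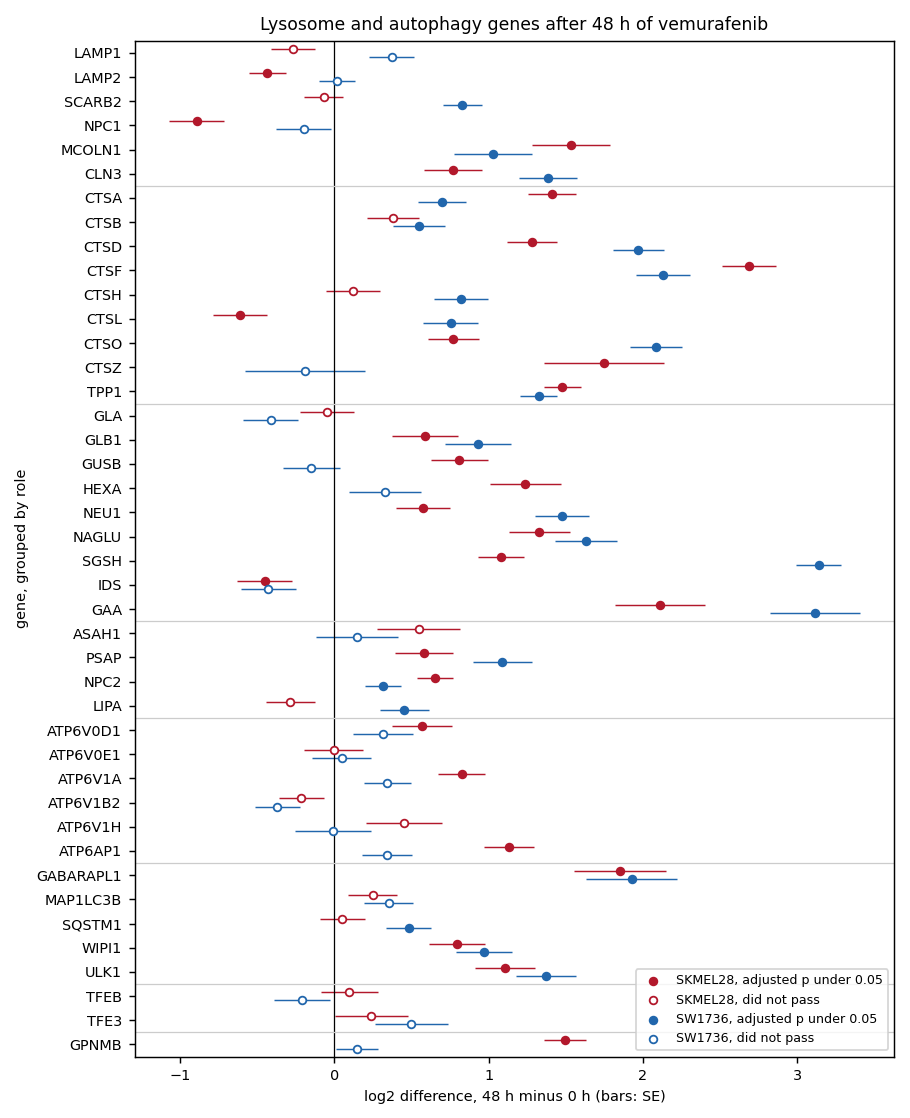
Log2 difference between 48 h and 0 h (horizontal axis, bars are SE, 3 arrays per group) for the 42 genes in SKMEL28 (red) and SW1736 (blue), grouped by role and separated by grey lines; filled points passed an adjusted p under 0.05. The proteases and glycan hydrolases lie mostly to the right of 0 in both lines, whereas the proton pump subunits ATP6V0D1, ATP6V1A and ATP6AP1 passed in SKMEL28 and 0 subunits passed in SW1736.

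Among the proteases, 6 of 9 rose and 1 fell in SKMEL28, and 8 of 9 rose in SW1736. CTSF, a cysteine cathepsin, read 8.09, 8.05 and 8.22 in untreated SKMEL28 and 10.87, 10.81 and 10.74 at 48 h, a rise of 2.69 ± 0.17 (adjusted p = 1.56e-11). In SW1736 it read 6.82, 7.08 and 7.22 before and 8.98, 9.41 and 9.10 after, a rise of 2.13 ± 0.17 (adjusted p = 1.63e-09). All 48 h arrays lay above all untreated arrays of the same line. CTSD, the main aspartic protease of the lysosome, read 11.07, 10.90 and 11.08 in untreated SKMEL28 and 12.20, 12.36 and 12.34 at 48 h (1.28 ± 0.16, adjusted p = 1.14e-06). In SW1736 CTSD went from 9.91, 9.71 and 9.53 to 11.74, 11.79 and 11.54 (1.97 ± 0.16, adjusted p = 2.12e-09). TPP1, a tripeptidyl peptidase whose loss causes a neuronal storage disease, rose by 1.48 ± 0.12 in SKMEL28 and 1.32 ± 0.12 in SW1736. CTSA, which protects NEU1 and GLB1 in a complex, rose by 1.41 ± 0.16 and 0.70 ± 0.16. CTSA no longer passed in SW1736 under median scaling (0.43).

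Of the other cathepsins, CTSL, CTSZ and CTSO differed between the lines in their 48 h response, as given below, and CTSB did not pass that test (0.17 ± 0.24, adjusted p = 0.688). CTSL, a cysteine protease with broad specificity, read 12.23, 12.36 and 12.44 in untreated SKMEL28 and 11.80, 11.69 and 11.71 at 48 h, a difference of -0.61 ± 0.18 (adjusted p = 0.00788). In SW1736 CTSL read 11.09, 11.15 and 10.58 and then 11.52, 12.02 and 11.54, a rise of 0.75 ± 0.18 (adjusted p = 0.00183). The groups did not overlap in either line. On its other kept probes CTSL in SW1736 differed by 0.31 and -0.12, so the rise there rests on the brightest probe. Median scaling and the mean of probes also lost that call. CTSZ, a carboxypeptidase, read 8.06, 8.07 and 7.81 in untreated SKMEL28 and 9.73, 9.70 and 9.73 at 48 h (1.75 ± 0.39, adjusted p = 0.00089). In SW1736 it read 6.70, 7.13 and 8.39 and then 7.20, 7.03 and 7.40, with wide untreated replicates and no call (-0.19 ± 0.39). CTSO was detected on all SKMEL28 arrays and rose by 0.77 ± 0.17 there. In SW1736 CTSO was detected on no array before 48 h and on 3 of 3 at 48 h (6.79, 6.83 and 6.83), which makes it at least 2.77-fold higher (adjusted p = 1.11e-09). Such a bound sets the 48 h mean against the lowest signal among detected probes. The p-value beside a bound is that of the difference fitted against background values. CTSB and CTSH rose in SW1736 by 0.55 ± 0.17 and 0.82 ± 0.18, and their differences in SKMEL28 were 0.38 ± 0.17 and 0.12 ± 0.18. For CTSB the SW1736 call was lost under median scaling, with SW1736 fitted alone, and without untreated replicate 2 (0.46) or 48 h replicate 1 (0.43). On a dimmer probe of each gene the difference did not pass (0.19 for CTSB, 0.37 for CTSH).

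Of the 9 hydrolases that act on glycans, 7 rose and 1 fell in SKMEL28, and 5 rose in SW1736. GAA, which degrades glycogen in the lysosome, read 6.18, 6.13 and 5.88 in untreated SKMEL28 and 8.37, 7.95 and 8.20 at 48 h (2.11 ± 0.29, adjusted p = 2.93e-06). In SW1736 it went from 5.17, 5.61 and 5.97 to 8.77, 8.42 and 8.91 (3.11 ± 0.29, adjusted p = 1.3e-08). It was detected on 2 of the 3 untreated SW1736 arrays, and its 48 h arrays lay above all earlier arrays of the same line. SGSH, a sulfatase of heparan sulfate breakdown, read 9.98, 9.78 and 9.70 in untreated SKMEL28 and 11.05, 10.85 and 10.79 at 48 h (1.08 ± 0.15, adjusted p = 2.32e-06). In SW1736 SGSH was detected on no array at 0, 1 or 6 h and read 7.76, 8.01 and 8.15 at 48 h, at least 6.19-fold higher (adjusted p = 1.64e-13). NAGLU, which acts in the same pathway, rose by 1.33 ± 0.20 and 1.63 ± 0.20. NEU1, a sialidase, read 9.31, 9.26 and 9.37 and then 9.81, 9.93 and 9.93 in SKMEL28 (0.58 ± 0.18), and 8.19, 8.19 and 8.38 and then 9.35, 9.68 and 10.16 in SW1736 (1.47 ± 0.18). The SKMEL28 rise of NEU1 did not pass under median scaling (0.42). GLB1, a beta-galactosidase, rose by 0.59 ± 0.21 and 0.93 ± 0.21. Its SW1736 groups overlapped, and the SKMEL28 call was lost under median scaling and when any untreated or 48 h SKMEL28 array was left out (0.56 to 0.63). HEXA, a subunit of beta-hexosaminidase, and GUSB, a beta-glucuronidase, rose in SKMEL28 by 1.24 ± 0.23 and 0.81 ± 0.18. Their SW1736 differences were 0.33 ± 0.23 and -0.15 ± 0.18. IDS, an iduronate sulfatase, read 9.05, 9.20 and 9.02 and then 8.76, 8.49 and 8.66 in SKMEL28 (-0.45 ± 0.18, adjusted p = 0.0475), a call that was lost without each untreated SKMEL28 array in turn. GLA, an alpha-galactosidase, passed in neither line.

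**Figure D2:**
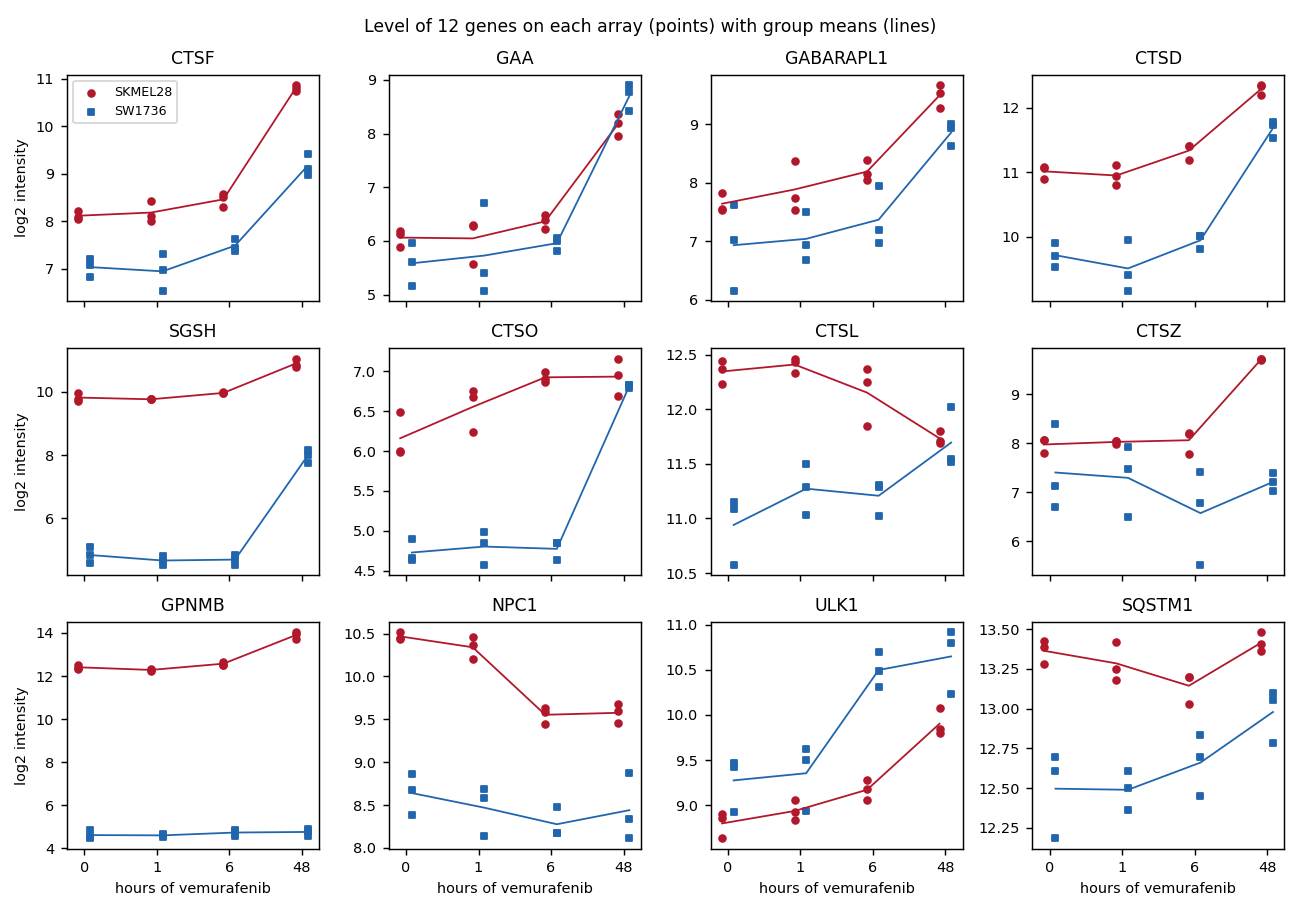
Normalised log2 intensity (vertical axes, a separate scale in each panel) of 12 genes on each array (points) against hours of vemurafenib (horizontal axis, 4 evenly spaced times), with lines through the means of 3 arrays; SKMEL28 is red circles and SW1736 blue squares. CTSF, GAA, GABARAPL1 and CTSD were highest at 48 h in both lines, and NPC1 was already lower at 6 h in SKMEL28. The CTSL probe shown, its brightest, moved in opposite directions, and the GPNMB probe shown was detected on SKMEL28 arrays only.

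Of 4 lipid-handling proteins, 2 rose in SKMEL28 and 3 in SW1736. PSAP, the precursor of the saposins, rose by 0.58 ± 0.19 in SKMEL28 and 1.09 ± 0.19 in SW1736. NPC2, which carries cholesterol inside the lysosome, rose by 0.65 ± 0.12 and 0.32 ± 0.12. The SW1736 call of NPC2 was lost without each untreated or 48 h SW1736 array in turn (0.29 to 0.33). Median scaling, array weights and a fit of SW1736 alone also lost that call. LIPA, the acid lipase, rose in SW1736 by 0.45 ± 0.16 (adjusted p = 0.0295), a call lost without untreated replicate 1 or 2 or 48 h replicate 1 or 2 (0.28 to 0.46). Its call was also lost under median scaling, with array weights and with SW1736 fitted alone. In SKMEL28 LIPA differed by -0.29 ± 0.16. ASAH1, a ceramidase, passed in neither line.

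Membrane proteins went both ways in SKMEL28, where 2 of 6 rose and 2 fell, while 3 of 6 rose in SW1736. MCOLN1, a calcium channel of the lysosome, read 8.13, 7.78 and 8.07 and then 9.54, 9.48 and 9.55 in SKMEL28 (1.53 ± 0.25, adjusted p = 3.24e-05). In SW1736 it read 6.91, 7.58 and 6.85 and then 8.54, 7.77 and 8.12 (1.03 ± 0.25, adjusted p = 0.00261). CLN3, a membrane protein lost in juvenile neuronal ceroid lipofuscinosis, rose by 0.77 ± 0.19 and 1.38 ± 0.19. NPC1, the cholesterol exporter that works with NPC2, read 10.45, 10.44 and 10.52 in untreated SKMEL28 and 9.59, 9.68 and 9.45 at 48 h (-0.89 ± 0.18, adjusted p = 0.00031). In SW1736 NPC1 differed by -0.20 ± 0.18 and did not pass. SCARB2, the receptor that brings glucocerebrosidase to the lysosome, read 10.56, 10.66 and 10.37 and then 11.53, 11.27 and 11.29 in SW1736 (0.83 ± 0.13, adjusted p = 1.68e-05), against -0.07 ± 0.13 in SKMEL28. LAMP1, an abundant membrane glycoprotein, passed in neither line (-0.27 ± 0.15 and 0.37 ± 0.15).

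LAMP2, the companion of LAMP1, gave a different answer on different probes. It exists as isoforms with different ends, and isoform A is the receptor of chaperone-mediated autophagy. All 6 LAMP2 probes were detected on all 24 arrays. The brightest, ILMN_2279961, annotated to the isoform B transcript, read 11.96, 12.02 and 12.04 in untreated SKMEL28 and 11.57, 11.55 and 11.60 at 48 h (-0.43 ± 0.12, adjusted p = 0.00487). The next, ILMN_1752351, annotated to the same transcript, differed by -0.44 ± 0.16 (adjusted p = 0.038 over all kept probes). In SW1736 both were close to their untreated level, at 0.02 ± 0.12 and 0.04 ± 0.16. ILMN_1673282, annotated to the isoform A transcript, read 11.63, 11.43 and 11.47 and then 12.05, 12.22 and 12.00 in SKMEL28 (0.58 ± 0.16, adjusted p = 0.00579). In SW1736 it read 10.65, 10.58 and 10.33 and then 11.74, 12.07 and 11.76 (1.34 ± 0.16, adjusted p = 5.81e-07). The other isoform A probe, ILMN_2243687, rose by 0.76 ± 0.17 and 1.06 ± 0.17. ILMN_1659753, also annotated to isoform B, rose by 0.50 ± 0.15 and 1.19 ± 0.15, and the probe for an mRNA clone, ILMN_1917290, by 1.13 ± 0.19 and 1.52 ± 0.19. Probes annotated to isoform B differed in direction in SKMEL28. The other probes were examined after the data were seen.

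**Figure D3:**
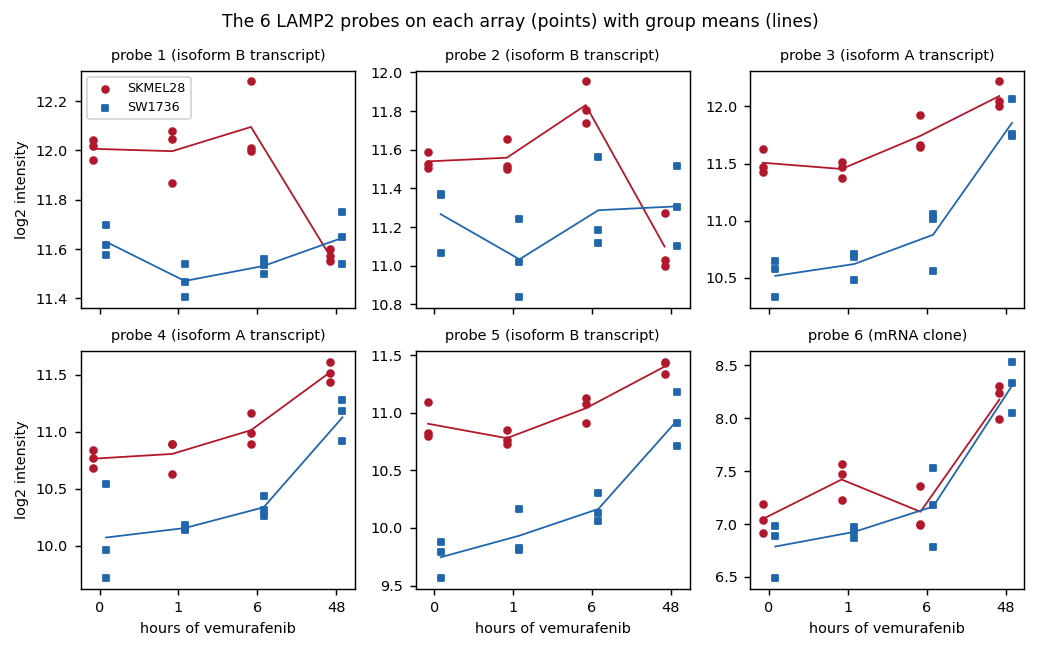
Normalised log2 intensity (vertical axes, a separate scale in each panel) of the 6 LAMP2 probes on each array (points) against hours of vemurafenib (horizontal axis, 4 evenly spaced times), with lines through the means of 3 arrays; panels are ordered by brightness and named by the annotated transcript. Probes 1 and 2 fell at 48 h in SKMEL28 and stayed near their untreated level in SW1736, while probes 3 to 6 were higher at 48 h in both lines.

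Of 6 proton pump genes, 3 rose in SKMEL28 and 0 rose or fell in SW1736 by limma, where ATP6V1A, ATP6AP1 and ATP6V1B2 had an unadjusted p under 0.05 and passed under some of the other settings. ATP6AP1, an accessory subunit, read 11.30, 11.41 and 11.31 and then 12.46, 12.38 and 12.56 in SKMEL28 (1.13 ± 0.16, adjusted p = 5.31e-06). In SW1736 it read 12.04, 12.25 and 11.54 and then 12.37, 12.24 and 12.26 (0.34 ± 0.16, adjusted p = 0.111), so its groups overlapped. The catalytic subunit ATP6V1A rose by 0.83 ± 0.15 in SKMEL28 and ATP6V0D1, of the membrane sector, by 0.57 ± 0.19, with SW1736 differences of 0.34 ± 0.15 and 0.32 ± 0.19. The ATP6V0D1 call did not pass under median scaling (0.40) or without untreated replicate 1 or 2 or 48 h replicate 2 of SKMEL28 (0.49 to 0.51). ATP6V0E1, ATP6V1B2 and ATP6V1H passed in neither line.

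Among the autophagy genes, 3 of 5 rose in SKMEL28 and 4 of 5 in SW1736. GABARAPL1, a member of the ATG8 family that coats autophagosomes, read 7.54, 7.82 and 7.56 and then 9.27, 9.67 and 9.53 in SKMEL28 (1.85 ± 0.30, adjusted p = 2.33e-05). In SW1736 it read 7.02, 6.15 and 7.62 and then 8.63, 9.00 and 8.94 (1.93 ± 0.30, adjusted p = 2.0e-05). The 48 h arrays stood above every earlier array of their line. ULK1, the kinase that starts autophagy, rose by 1.10 ± 0.19 and 1.37 ± 0.19, and WIPI1, which binds the forming membrane, by 0.79 ± 0.18 and 0.97 ± 0.18. MAP1LC3B, the ATG8 protein most used as an autophagosome marker, did not pass in either line (0.25 ± 0.16 and 0.35 ± 0.16). SQSTM1, the cargo receptor p62, read 13.42, 13.39 and 13.28 and then 13.40, 13.36 and 13.48 in SKMEL28 (0.05 ± 0.15). In SW1736 SQSTM1 read 12.70, 12.61 and 12.18 and then 13.06, 13.10 and 12.78, a rise of 0.48 ± 0.15 (adjusted p = 0.013) that was lost without untreated replicate 3 (0.33) or 48 h replicate 2 (0.42). Median scaling and a fit of SW1736 alone also lost that call. These are RNA levels and say nothing of autophagic flux.

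Neither transcription factor of the set passed at 48 h in either line. TFE3 read 6.37, 6.87 and 6.60 and then 6.58, 7.12 and 6.85 in SKMEL28 (0.24 ± 0.24, adjusted p = 0.475), and 8.23, 8.56 and 8.30 and then 9.05, 8.63 and 8.89 in SW1736 (0.50 ± 0.24, adjusted p = 0.112). TFEB was detected on 3 of 24 arrays, 2 untreated and 1 at 48 h, all of SW1736, so its level was near the limit of the arrays and its calls are not read further. GPNMB, a glycoprotein of melanosomes and lysosomes and a known MITF target, read 12.39, 12.33 and 12.51 in untreated SKMEL28 and 14.03, 13.93 and 13.74 at 48 h (1.49 ± 0.14, adjusted p = 5.37e-09). In SW1736 that probe was detected on no array. The other GPNMB probe was detected on 1 SW1736 array, at 48 h, where its difference was 0.43 ± 0.16 (adjusted p = 0.0479 over all kept probes), against 2.00 ± 0.16 in SKMEL28.

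Of the 9 genes with CACGTG in a promoter window, 7 are among the 13 genes with a window that rose in both lines (53.8%), 1 (ATP6V0D1) among the 10 that rose in 1 line and 1 (LAMP1) among the 7 that rose in neither. For TCACGTGA the counts were 4 of 13 (30.8%), 1 of 10 and 1 of 7. GAA, MCOLN1, CTSA and CLN3 make up the first group. The counts are small and describe these windows only.

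At 1 h no change was called. By limma 0 of 42 genes were called higher or lower in SKMEL28 (0.0365% of all genes higher, 0.139% lower) or in SW1736 (0.0365% and 0.175%). At an unadjusted p under 0.05 the counts were 1 and 3, and the other fits tried also called 0.

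At 6 h few changes were called, and in SKMEL28 only 1 gene was called higher (2.63% of all genes higher) and 1 lower (4.22% lower). Called or not, 32 of 42 differences were above 0 (6923 of all 13699), with a median of 0.11 against 0.003 over all genes. The one that rose was CTSO, from 6.01, 6.49 and 5.98 to 6.87, 6.99 and 6.91 (0.76 ± 0.17, adjusted p = 0.00418), though not under median scaling (0.60). NPC1 fell from 10.45, 10.44 and 10.52 to 9.59, 9.44 and 9.63 (-0.91 ± 0.18, adjusted p = 0.00141). Both had reached their 48 h level by then, with 48 h against 6 h differences of 0.01 ± 0.17 for CTSO and 0.02 ± 0.18 for NPC1. In SW1736 2 genes rose (4.03% higher) and 1 fell (4.68% lower). There 28 of 42 differences were above 0 (6974 of all 13699), with a median of 0.18 against 0.008 over all genes. ULK1 went from 9.43, 9.47 and 8.93 to 10.70, 10.48 and 10.31 (1.22 ± 0.19, adjusted p = 0.000196) and differed by 0.15 ± 0.19 between 6 and 48 h. NEU1 rose by 0.62 ± 0.18 (adjusted p = 0.0288), a call lost without untreated replicate 1 or 2 or without 6 h replicate 2 or 3 (0.55 to 0.59). The NEU1 call was also lost under median scaling, with array weights and with SW1736 fitted alone. The gene called lower was the barely detected TFEB. In SKMEL28 ULK1 differed by 0.37 ± 0.19 at 6 h and did not pass.

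Most of the rise came between 6 and 48 h. In SKMEL28 21 genes rose over that interval (17.8% of all genes) and 3 fell (15.1%), the latter being LAMP1 (-0.43 ± 0.15), LAMP2 on its brightest probe (-0.52 ± 0.12) and IDS (-0.64 ± 0.18). CTSF rose by 2.35 ± 0.17, GAA by 1.81 ± 0.29 and CTSZ by 1.66 ± 0.39. In SW1736 19 rose (14.9%) and 1 fell (12.6%). SGSH was at least 6.11-fold higher and CTSO at least 2.74-fold higher than at 6 h, and GAA rose by 2.74 ± 0.29 and CTSD by 1.74 ± 0.16. The gene that fell was GLA (-0.63 ± 0.18, adjusted p = 0.0096). These comparisons share the 48 h arrays with those above.

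The responses of the lines were then set against each other as SW1736 minus SKMEL28. At 1 h 0 genes differed by limma (0.0146% of all genes higher, 0.00730% lower), and 0 had an unadjusted p under 0.05. At 6 h 0 differed (2.29% higher, 1.95% lower), although 5 had an unadjusted p under 0.05, the lowest adjusted p being 0.0943 for ULK1. At 48 h 9 genes responded more in SW1736 (11.5% of all genes) and 5 less (9.54%). The larger responses in SW1736 were those of SGSH (2.06 ± 0.21, adjusted p = 9.17e-08), CTSL (1.37 ± 0.25), CTSO (1.31 ± 0.24), SCARB2 (0.90 ± 0.18), NEU1 (0.90 ± 0.25) and LIPA (0.74 ± 0.22), followed by CTSH, CTSD and LAMP1. SGSH and CTSO were undetected in untreated SW1736, so their differences are as fitted against background values and give no rank. The smaller ones were CTSZ (-1.94 ± 0.55), GPNMB (-1.35 ± 0.19 as fitted, brightest probe undetected in SW1736), GUSB (-0.96 ± 0.26), ATP6AP1 (-0.79 ± 0.23) and CTSA (-0.71 ± 0.22). GABARAPL1 did not pass, with a difference of 0.07 and a 95% interval from -0.80 to 0.94. For TPP1 the interval ran from -0.51 to 0.20. Under median scaling 8 differences passed (4 higher, 4 lower), a count given without its share of all genes. Of the 14 calls, 7 held under all 33 other settings tried (the brightest probe or the mean of probes). They were those of SCARB2, CTSL, CTSO, CTSZ, GUSB, SGSH and GPNMB. For GPNMB those settings read background values in SW1736 again, so they do not bear on its response there.

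**Figure D4:**
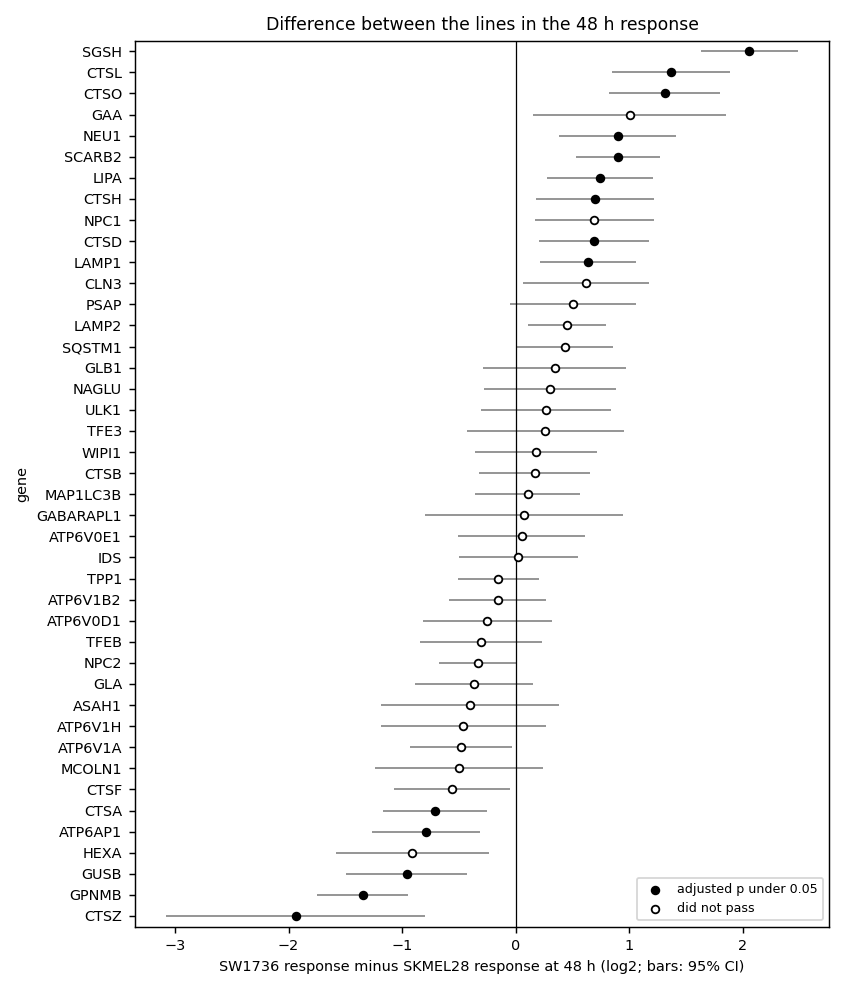
Difference between the 48 h responses, SW1736 minus SKMEL28 (horizontal axis, log2, bars are 95% confidence intervals, 3 arrays per group), for the 42 genes ordered by size; filled points passed an adjusted p under 0.05. SGSH, CTSL and CTSO lie farthest to the right (SGSH and CTSO as fitted, undetected in untreated SW1736). CTSZ, with the widest interval, and GPNMB (as fitted, its probe undetected on all SW1736 arrays) lie farthest to the left.

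Before treatment the lines already differed. In untreated SW1736 25 of the 42 genes were lower than in untreated SKMEL28 (24.7% of all genes were called lower) and 7 higher (25.5% called higher), with a median of -0.70. Proteases were lower in 7 of 9 and proton pump genes in 4 of 6. Of these, the calls of TPP1, ATP6V0E1 and ATP6V1A were lost without certain single arrays. SGSH was at least 22.3-fold lower and GPNMB, on its brightest probe, at least 134-fold lower in untreated SW1736, where no probe of either gene was detected. The other GPNMB probe differed by -6.57 ± 0.16 as fitted. WIPI1 read 7.65, 7.54 and 8.04 in SW1736 and 10.25, 10.21 and 10.35 in SKMEL28 (-2.53 ± 0.18, adjusted p = 3.42e-11), and NPC1 differed by -1.83 ± 0.18. Higher in SW1736 were TFE3 (1.75 ± 0.24, adjusted p = 1.19e-06), GUSB (1.54 ± 0.18), CTSA (0.66 ± 0.16), ATP6AP1 (0.61 ± 0.16), ULK1 (0.48 ± 0.19) and LAMP1 (0.45 ± 0.15). The remaining call was TFEB, which was detected on 2 untreated SW1736 arrays and no SKMEL28 array and is not read further. The ULK1 call was lost under several settings, among them median scaling and the omission of each untreated SKMEL28 array in turn. That of LAMP1 was lost under median scaling and without untreated SW1736 replicate 2. Tissue of origin and every other difference between the lines cannot be told apart here.

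A further 99 measured genes of the same pathways, from lists of other hydrolases, membrane and sorting proteins, pump subunits, autophagy genes and regulators of TFEB, were also tested. In SKMEL28 42 rose and 8 fell (42.4% and 8.08%, against 20.0% and 18.8% of all genes; median 0.36), and in SW1736 38 rose and 8 fell (38.4% and 8.08%, against 18.2% and 16.1% of all genes; median 0.28). Among other hydrolases 10 of 19 rose and 3 fell in each line. CTSK, a collagen-cleaving cathepsin, rose by 2.44 ± 0.30 in SKMEL28 and 1.00 ± 0.30 in SW1736, whereas CTSV fell by 1.15 ± 0.14 and 1.81 ± 0.14. Of other autophagy genes 12 of 35 rose and 4 fell in SKMEL28, and 10 rose and 3 fell in SW1736. The receptor OPTN rose by 2.79 ± 0.17 in SKMEL28 and 0.50 ± 0.17 in SW1736, and TP53INP1 by 2.48 ± 0.17 and 2.11 ± 0.17. BNIP3, a mitophagy receptor, fell by 1.35 ± 0.23 in SKMEL28. Of other membrane and sorting genes 7 of 14 rose in SKMEL28, led by OSTM1 (1.70 ± 0.21), and 9 rose in SW1736, led by the transporter ABCA2 (2.87 ± 0.27). Other pump subunits rose in 4 of 10 in SKMEL28, led by ATP6V0A1 (1.17 ± 0.15), and in 2 of 10 in SW1736, and ATP6V0A2 fell in both. Of 21 regulators of TFEB, 9 rose in SKMEL28 and 7 in SW1736. RRAGB, a Rag GTPase that recruits mTORC1 to the lysosome, rose by 1.29 ± 0.21 and 1.59 ± 0.21, FNIP2 by 1.57 ± 0.25 in SKMEL28, and MITF by 0.86 ± 0.21 in SKMEL28.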

How the data were processed

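Signal intensities of 47231 probes were deposited for each of the 24 arrays, with no statement of their background treatment, and per the file headers each has a detection p-value. The authors also deposited a second value table, which by its distribution is on a log2 scale and quantile normalized. It was used as an alternative only. The submitters' processing notes name Partek without a version. Symbols came from the platform annotation, where 30113 probes had 1 symbol (30074 matched to a current gene), 8 several and 17110 none.

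Here intensities were background corrected (normexp by detection p-value, offset 16), quantile normalized and put on the log2 scale. A probe needed a detection p-value under 0.05 on 3 arrays or more, which 26673 met, and each gene was read from its probe of highest mean. A model of 8 group means was fitted with limma 3.58.1 in R 4.3.3 (16 residual and 6.34 prior degrees of freedom). Each of 12 comparisons was adjusted by Benjamini and Hochberg over all 13699 genes. A gene undetected on every array of a group has a bound ("at least N-fold"), the mean of the detected group against the lowest signal of detected probes or its own, whichever is higher. The number of arrays limits the precision, and no pair of replicate arrays was identical.

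The genes and lists were chosen with earlier results of these data known. Values by array are given for the largest called 48 h changes (up to 8 each way in each line), for up to 6 of the largest called differences in response each way, and for TFEB, TFE3, GPNMB and SQSTM1; of the other lists up to 3 called genes each way per line are named. A few further genes were named by role, and single probes were looked at after the data were seen. Other settings tried were the authors' values, median scaling, raw background, all probes or those at p under 0.01, the mean of a gene's probes, separate fits per line, array weights, replicate number as a block, and the omission of each array, or of the third SW1736 arrays together. Promoter windows are those of RefSeq. The fit was tested on simulated data. Figures were drawn with Python 3.11.15 and matplotlib 3.10.9.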

Additional observations from a re-analysis of the deposited data

Results flagged for a closer look

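The 48 h response differed between the lines, by a test of the difference itself (limma, adjusted p under 0.05, log2 SW1736 minus SKMEL28), for 14 genes. It was larger in SW1736 for SGSH (2.06), CTSL (1.37), CTSO (1.31), SCARB2 (0.90), NEU1 (0.90), LIPA (0.74), CTSH (0.70), CTSD (0.69) and LAMP1 (0.64). It was smaller for CTSZ (-1.94), GPNMB (-1.35), GUSB (-0.96), ATP6AP1 (-0.79) and CTSA (-0.71). CTSH (adjusted p = 0.0497) and CTSD (adjusted p = 0.037) passed by little, and 6 of these calls were lost when certain single arrays were left out, those of CTSA, CTSD, CTSH, LAMP1, LIPA and ATP6AP1. For ATP6AP1 the array was untreated SW1736 replicate 2 (-0.64). On dimmer probes CTSL gave 0.83 (adjusted p = 0.0338) and 0.55 (adjusted p = 0.285), and CTSH 0.40 (adjusted p = 0.346). A further 4 dimmer probes passed where the brightest probe of the gene did not, adjusted over all kept probes. They were those of GAA (1.35, adjusted p = 0.0486), PSAP (0.69, adjusted p = 0.0487) and LAMP2 (0.75 and 0.69, adjusted p = 0.0233 and 0.0322). SGSH and CTSO were detected on no untreated SW1736 array and the brightest GPNMB probe on no SW1736 array, so these 3 differences are as fitted against background values and their sizes are not exact. For GPNMB the SW1736 values are background at every time, so the test cannot tell a smaller response from an undetected gene. SW1736 replicates were more variable than those of SKMEL28, and their part in these differences was not tested.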

How the results depend on the processing

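Calls held under all 33 or 34 other settings tried on the brightest probe or the mean of probes for 23 of 28 genes at 48 h in SKMEL28, 17 of 23 in SW1736, 7 of 14 differences in response and 21 of 32 differences between untreated lines. The last count includes the block by replicate number, whose limit for that comparison is given below. Among the 7 differences in response is that of GPNMB, whose brightest probe was undetected in SW1736. At 6 h in SKMEL28 the count of called genes (2) became 4 without background correction, with the authors' values and with array weights, 1 under median scaling and 6 with the line fitted alone. At 6 h in SW1736 it went from 3 to 1 with the line fitted alone and with array weights, and from 48 h against 6 h in SW1736 it went from 20 to 13 with the line fitted alone. The count for the 6 h difference in response (0) became 1 without background correction, with the authors' values and with the mean of probes, and that at 48 h (14) became 8 under median scaling. Leaving out each array in turn, or the third SW1736 arrays together, gave 2 to 4 and 25 to 30 calls at 6 and 48 h in SKMEL28, 1 to 3 and 20 to 25 in SW1736, 21 to 27 and 14 to 22 for 48 h against 6 h, 0 to 1 and 10 to 16 for the differences in response at 6 and 48 h, and 28 to 35 between untreated lines. At 1 h all of these gave 0. Counts under other settings, here and below, are given without the share of all genes called in the same setting. LAMP2 in SKMEL28 turned positive with the mean of its probes (0.35 at 48 h, 0.17 against 6 h) and on single probes (1.13, 0.58, 0.50 and 0.76, and against 6 h 1.06, 0.35, 0.36 and 0.51). In SW1736 CTSL turned negative on a dimmer probe (-0.12, and -0.14 against 6 h), as did ASAH1 against 6 h (-0.78). The cause was not tested. Median scaling moved the median of all genes to -0.13 at 6 h in SKMEL28.

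The labels do not say what the replicate numbers share, and they were not treated as pairs in the main fit. Not every correlation passed 0.1, the cut-off used, and a batch shared by number was not tested. Deviations of same-numbered arrays correlated from -0.0226 to 0.0737 in SKMEL28 and from -0.002 to 0.179 in SW1736, and 7 and 11 of 12 arrays in these lines correlated best with their own number. The means were 0.0204 and 0.0697. Those for arrays of other numbers, -0.0102 and -0.0348, are no separate comparison, because deviations from a group mean cancel within the group. With the replicate number as a block 29 genes were called at 48 h in SKMEL28, 24 in SW1736, 16 for the difference in response and 28 between untreated lines. In that fit the untreated lines were set against each other at the level of replicate 1 alone, with no average over replicates. There TPP1, PSAP, MCOLN1, ATP6V0E1, ATP6V1A and ATP6V1H lost their calls, and of the 4 lower proton pump calls ATP6V1B2 stood. Such losses can come from that coding and are not by themselves read as a failure of the difference in group means. Without the block, the calls of TPP1, ATP6V0E1 and ATP6V1A were also lost when certain single arrays were left out. On a dimmer probe ATP6V1H differed by -0.15 (limma, adjusted p = 0.671 over all kept probes) and ATP6V0E1 by -0.74 (adjusted p = 0.00216).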
